A study of Mus musculus with 6 samples.

Results

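The genes Gm4759, Gvin1, Cwc22 and Sfi1 were followed probe set by probe set in KLS cells of wild-type and Dnmt3a+/- mice. They were chosen from earlier results of these data because probe sets of a gene had shifted by unequal amounts, or in opposite directions, between the genotypes. The difference between genotypes is therefore what chose them, and it is described below without a test. They are 4 of the 22103 genes that had a probe set with a single gene symbol. Of the 1256831 probe sets of the array table, 318760 carried exactly 1 gene symbol, and 229 of these named 1 of the 4 genes: 42 for Gm4759 (listed under its older name EG209380), 3 for Gvin1, 85 for Cwc22 and 99 for Sfi1. A further 16 probe sets named Cwc22 together with another gene and 10 named Sfi1 together with others, and these were left out.

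KLS cells are marrow cells positive for Kit and Sca-1 and negative for markers of mature blood lineages, a fraction that contains blood stem cells. Total RNA of these cells was read on 1 whole-transcript array per sample, with 3 wild-type samples and 3 Dnmt3a+/- samples, in which 1 copy of the DNA methyltransferase gene Dnmt3a is disrupted. The sources used here do not give the strain, the age, the design of the disrupted allele or whether samples came from separate mice, so the spread between arrays, and p-values resting on it, may be technical. Values are log2 of the deposited intensities, and a difference is that of the Dnmt3a+/- mean from the mean of wild-type, with its standard error (SE) from limma (3 arrays per genotype). Arrays are given in the order of replicates 1, 2 and 3.

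Gvin1 encodes a very large GTPase that interferons induce. RefSeq lists Gm4759 as a transcribed pseudogene, separated from Gvin1 by the transcribed pseudogenes Gm18853 and Gm8989 in the order of assembly GRCm38.p6. Cwc22 is a spliceosome protein that loads the helicase Eif4a3 onto RNA, the first step in building the exon junction complex. Sfi1 is a centrin-binding protein of the centrosome. A probe set reads a short stretch of a transcript, so probe sets of a gene can differ among themselves where exons, alleles or related gene copies differ. Probe positions, DNA copy number and alleles were not used here, and none of these was tested.

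Dnmt3a, the targeted gene, read 8.51, 8.70 and 8.50 on the wild-type arrays and 8.38, 8.20 and 8.20 on the Dnmt3a+/- arrays, lower on each of the latter than on any of the former. Of 11 markers of KLS cells, 10 had a mean over all their probe sets above the median level of the table (log2 5.89), and Slamf1 lay below it. Of 8 measured markers of lineages that the sort should remove, 1 lay above, Cd3e at 6.37, as did Col1a1 and Cdh5 among 4 markers of non-blood marrow cells. Dnmt3a+/- replicate 2 stood apart from the rest. Its gene values correlated with those of the other arrays at 0.897 to 0.919 (Pearson, across genes, which are not independent replicates), where the other pairs lay between 0.938 and 0.964. Where leaving it out moved the difference of a named probe set, group or gene by over 1.5 times, both values are given.

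Gm4759 had probe sets on both sides. Of its 42 probe sets, 17 were lower and 25 higher on average in Dnmt3a+/- cells. In 7 probe sets (16.7%) every Dnmt3a+/- array lay below every wild-type array, and in 19 (45.2%) every Dnmt3a+/- array lay above. Over all probe sets of the table the genotypes did not overlap with Dnmt3a+/- lower in 5.3% and with Dnmt3a+/- higher in 6.27%, 11.6% in all. Since this difference chose the genes, nothing is read from the counts. All 42 probe sets were above the median level. Without wild-type replicate 3 the lower count was 12 of the 42, where the share over the table was 10.1%.

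The lowest difference of Gm4759 belonged to probe set 4678770. It read 7.84, 7.47 and 7.88 on the wild-type arrays and 6.28, 6.91 and 6.44 on the Dnmt3a+/- arrays. The gap of 0.56 between the genotypes was wider than the range within wild-type (0.41) and narrower than that within Dnmt3a+/- cells (0.63), and the difference was -1.19 (SE 0.26). Probe set 5324110 read 9.48, 9.37 and 9.64 on wild-type arrays and 8.78, 8.65 and 8.92 on Dnmt3a+/- arrays, with a gap of 0.45 between the genotypes that was wider than the range within either (difference -0.71, SE 0.21). Probe sets 4323518 and 4523035 lay between these, at -0.96 (SE 0.32) and -0.77 (SE 0.28).

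At the other end, probe set 4328552 read 9.62, 9.32 and 9.89 on wild-type arrays and 10.07, 10.45 and 10.24 on Dnmt3a+/- arrays, a difference of 0.64 (SE 0.25). Here the highest wild-type array, replicate 3, was only 0.17 below the lowest Dnmt3a+/- array. The next were 4724249 (0.63, SE 0.24), 5148944 (0.63, SE 0.26) and 5221929 (0.61, SE 0.27). The brightest probe sets of the gene were nearly flat: 4850824 read 12.26, 12.27 and 12.30 on wild-type arrays and 12.14, 12.39 and 12.34 on Dnmt3a+/- arrays (difference 0.01, SE 0.20, and -0.04 without Dnmt3a+/- replicate 2), and 5139753 differed by 0.02 (SE 0.20, and -0.01 without it).

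**Figure D1:**
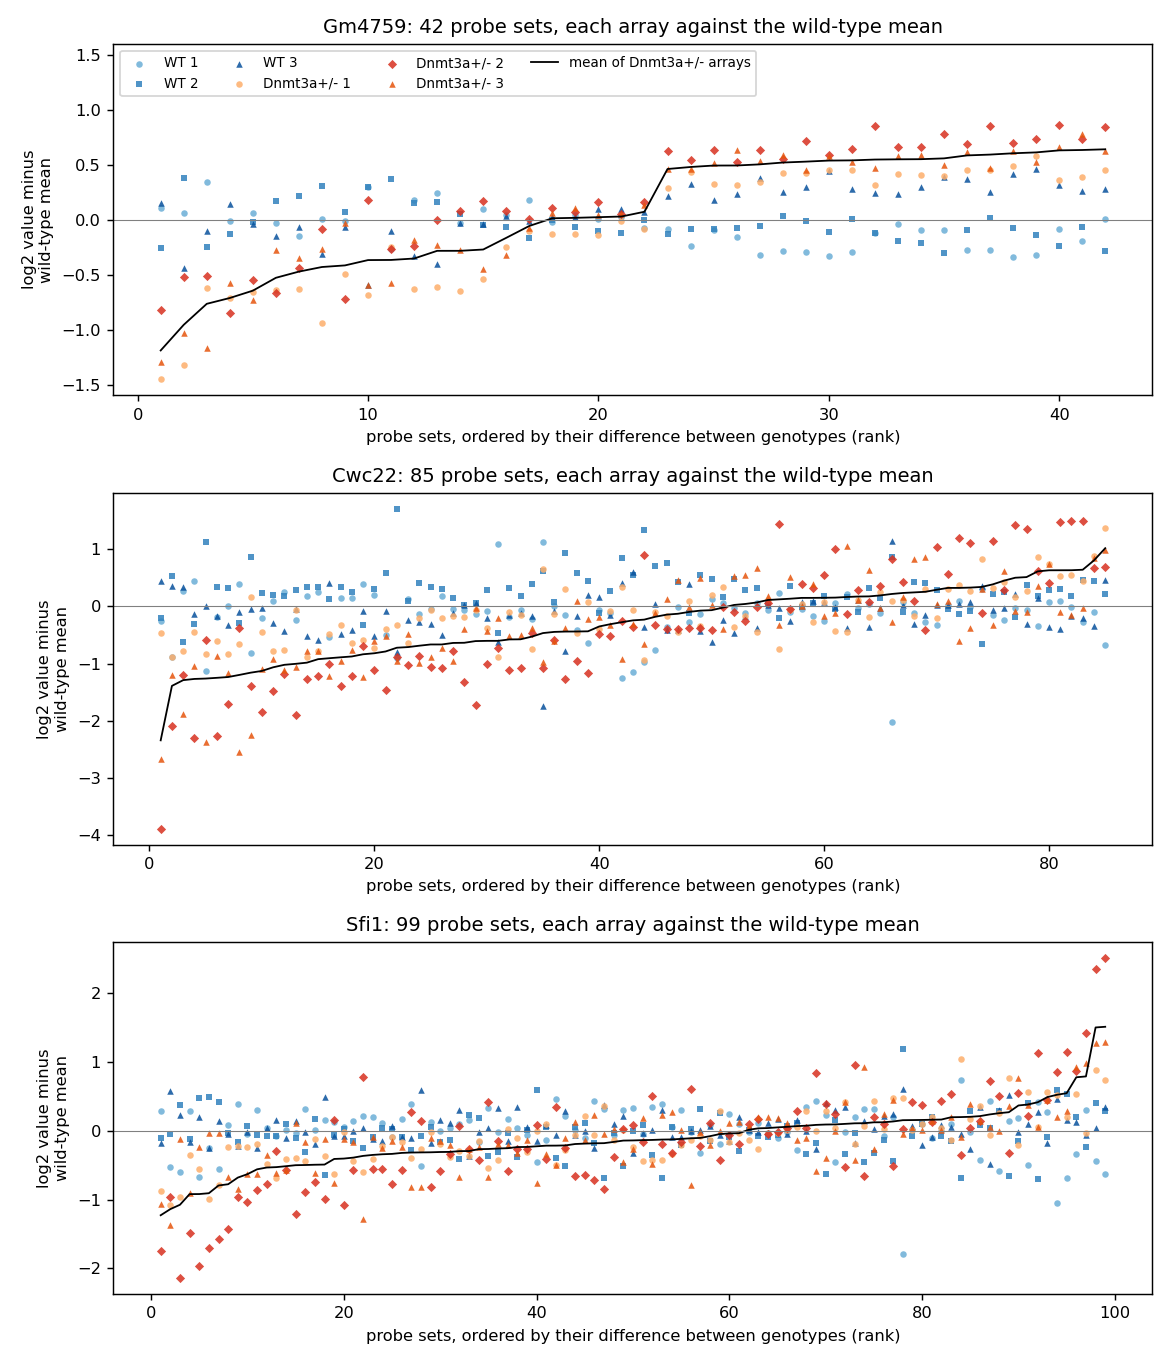
Each array's log2 value minus the wild-type mean of the same probe set (vertical axis, log2) for the 42 probe sets of Gm4759, the 85 of Cwc22 and the 99 of Sfi1, ordered by their difference between genotypes (horizontal axis, rank). Blue points are wild-type arrays, orange and red points Dnmt3a+/- arrays, and the black line is the Dnmt3a+/- mean. Gm4759 rises from below 0 through a flat stretch to a plateau near 0.55, while Cwc22 and Sfi1 run gradually from below to above 0.

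The higher side of Gm4759 was a plateau. When probe sets were grouped by likeness of their profile over the 6 arrays, a grouping chosen after the values were seen, 20 probe sets formed 1 group whose differences all lay between 0.46 and 0.64. Relative to each probe set's own mean, the group stood at -0.47, -0.39 and 0.03 on the wild-type arrays and at 0.13, 0.42 and 0.28 on the Dnmt3a+/- arrays. Wild-type replicate 3 was the highest wild-type array in all 20 of them, and stood nearer to Dnmt3a+/- replicate 1 than to the other wild-type arrays. Groups here and below were formed from these same values, so likeness within a group follows in part from the grouping. Whether the 20 probe sets share target sequence was not tested, so they are not counted as 20 separate observations.

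Of the 42 probe sets, 38 fell into 4 groups of at least 4. The lowest probe sets, 4678770, 4323518 and 4523035, fell into none of these groups. Groups on the lower side showed 2 patterns. In a group of 5 probe sets the wild-type arrays stood at 0.25, 0.34 and 0.24 and the Dnmt3a+/- arrays at -0.35, -0.37 and -0.11, so all 3 wild-type arrays were alike. In a group of 4 the values were 0.36, 0.41 and -0.23 on wild-type arrays and -0.54, 0.14 and -0.14 on Dnmt3a+/- arrays, and wild-type replicate 3 was the lowest wild-type array in all 4. A group of 9, which held the brightest probe sets, differed by -0.07, and by -0.15 without Dnmt3a+/- replicate 2. Wild-type replicate 3 thus stood with the other wild-type arrays in some probe sets of Gm4759 and with Dnmt3a+/- arrays in others.

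**Figure D2:**
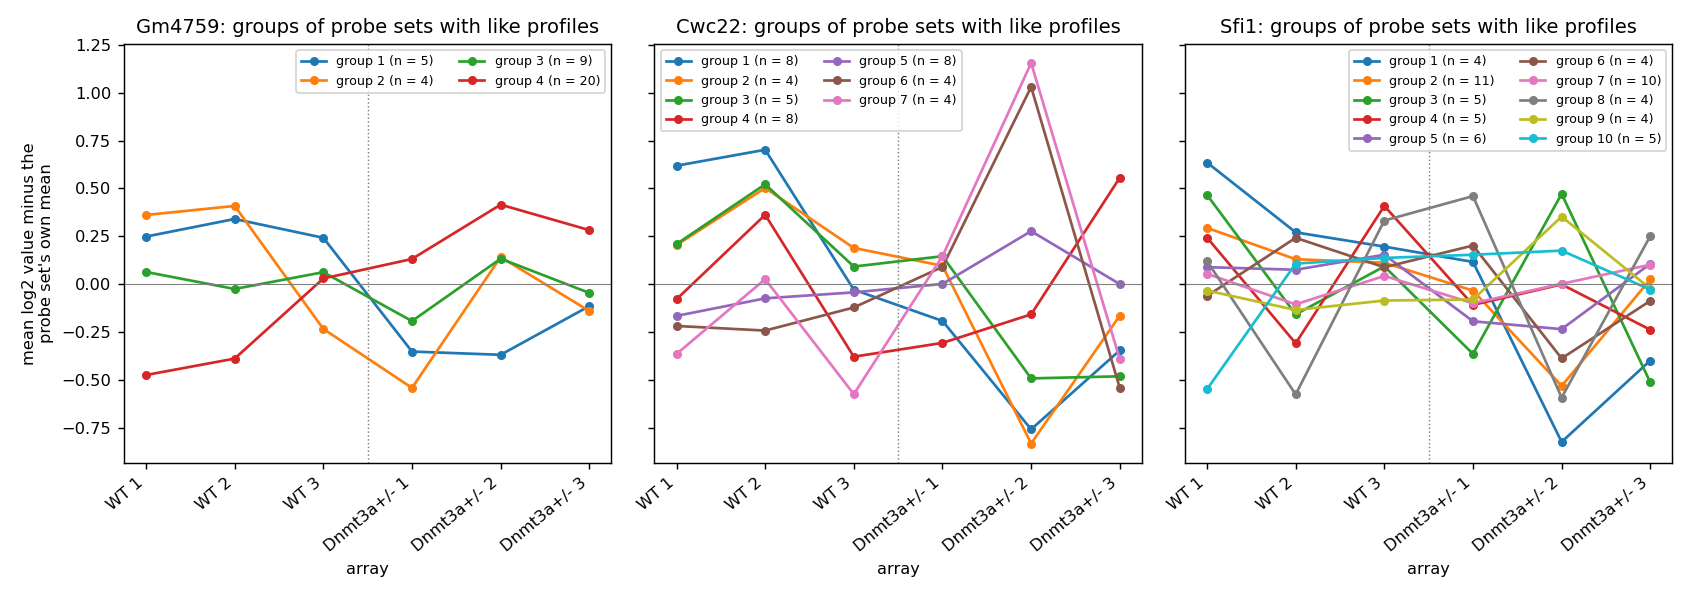
Mean log2 value minus each probe set's own mean (vertical axis) on the 6 arrays (horizontal axis) for groups of at least 4 probe sets above the median level with like profiles, numbered within each gene from the lowest to the highest difference, with wild-type arrays left of the dotted line. In Gm4759 group 4 rises from wild-type replicates 1 and 2 through replicate 3 to the Dnmt3a+/- arrays, and in Cwc22 groups 6 and 7 peak at 1.03 and 1.15 on Dnmt3a+/- replicate 2 alone.

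Distances between arrays, taken from the same values, show where each array stood. The root mean square difference over the 42 probe sets was 0.24 between wild-type replicates 1 and 2 and 0.26 to 0.39 between Dnmt3a+/- arrays. Between wild-type replicates 1 or 2 and any Dnmt3a+/- array it was 0.64 to 0.70. Wild-type replicate 3 was about equally far from every other array, at 0.43 and 0.41 from wild-type replicates 1 and 2 and at 0.41, 0.42 and 0.40 from Dnmt3a+/- replicates 1, 2 and 3. Over all probe sets of the table, the same distances were 0.73 to 0.79 within wild-type, 0.77 to 0.93 within Dnmt3a+/- and 0.72 to 0.92 between genotypes. Over probe sets above the median level, as all 42 of Gm4759 were, they were 0.51 to 0.59, 0.56 to 0.78 and 0.50 to 0.79. Dnmt3a+/- replicate 2 was the highest array in 23 of the 42 probe sets (54.8%, against 19.8% over all probe sets with 1 gene symbol) and in 17 of the 20 of the plateau.

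**Figure D3:**
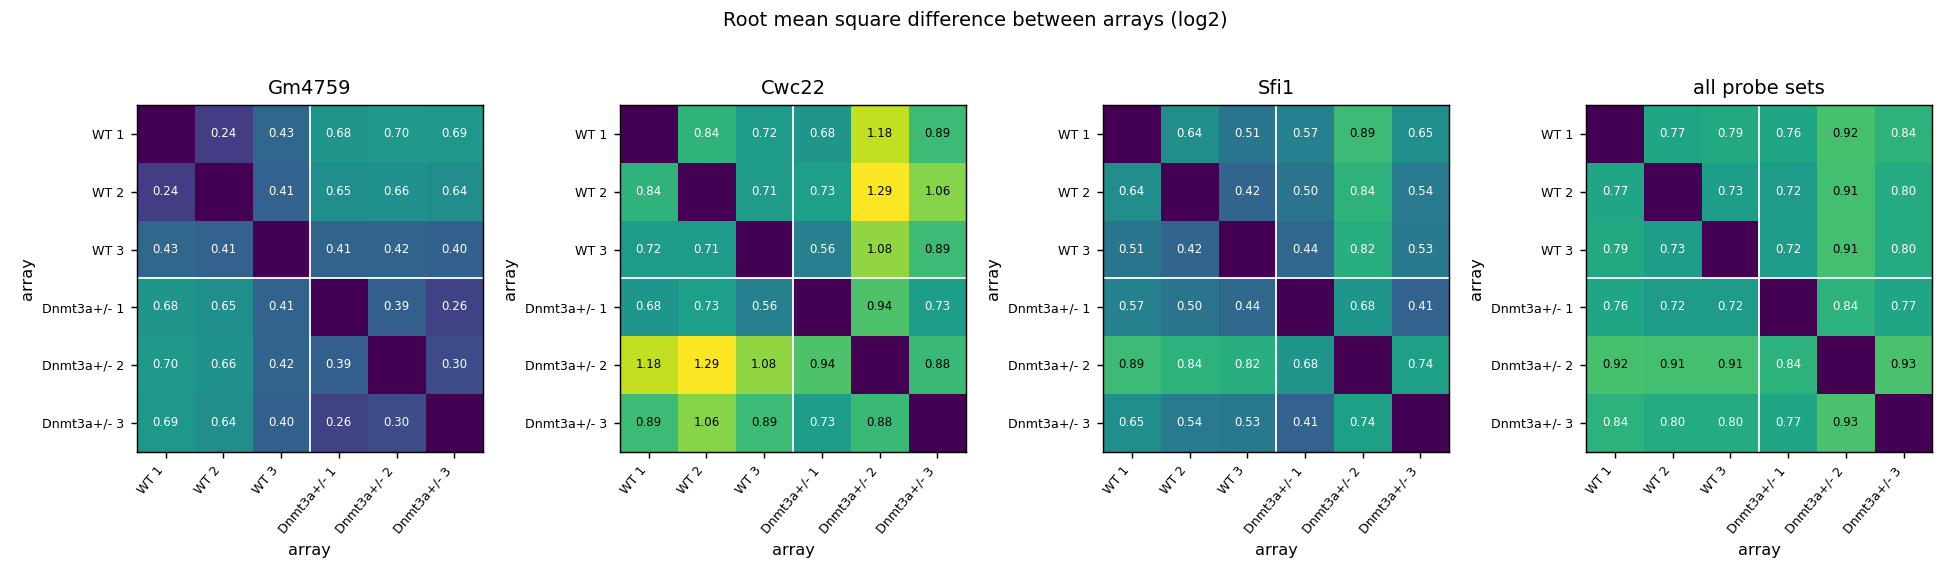
Root mean square difference of log2 values between each pair of arrays (rows and columns, colour and printed number, log2) over the probe sets of Gm4759, Cwc22 and Sfi1 and over all probe sets, with white lines between the genotypes. For Gm4759, wild-type replicates 1 and 2 form 1 block, the Dnmt3a+/- arrays another and wild-type replicate 3 lies between; for Cwc22 and Sfi1 the largest distances, 1.29 and 0.89, involve Dnmt3a+/- replicate 2.

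Gvin1, at the start of that run of neighbouring loci, was read by 3 probe sets, and all 3 had lower means in Dnmt3a+/- cells. Probe set 5586491 read 10.66, 10.94 and 10.85 on wild-type arrays and 10.64, 10.51 and 10.43 on Dnmt3a+/- arrays. The genotypes met within 0.02, and the difference was -0.29 (SE 0.21). Probe set 4913426 read 8.58, 8.57 and 8.83 on wild-type arrays and 7.59, 8.76 and 8.61 on Dnmt3a+/- arrays. Its difference of -0.34 (SE 0.35) came from Dnmt3a+/- replicate 1, and was 0.02 without that array and -0.56 without replicate 2. Probe set 5249271 overlapped, at -0.17 (SE 0.24). The 3 differences had the same sign and lay within their SEs of each other, so these data do not show opposite shifts for Gvin1.

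The differences of Cwc22 ran from -2.35 to 1.02, and from -1.39 to 1.02 among probe sets above the median level. That filter used the mean over all 6 arrays. The probe sets at both ends of the second range passed it only through the genotype in which they were high. Of its 85 probe sets, 51 had lower and 34 higher means in Dnmt3a+/- cells, with a median of -0.24. In 22 the genotypes did not overlap with Dnmt3a+/- lower (25.9%), and in 8 with Dnmt3a+/- higher (9.41%). The table as a whole had 5.3% and 6.27%. A total of 70 probe sets were above the median level. Without Dnmt3a+/- replicate 2 the non-overlapping probe sets were 24 and 8 of the 85, where the table as a whole had 9.88% and 10.6%. Without Dnmt3a+/- replicate 3, 14 of the 85 were higher without overlap, where the table had 13%.

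Probe set 5317243 read 7.21, 6.31 and 7.28 on wild-type arrays and 6.15, 5.73 and 5.05 on Dnmt3a+/- arrays (difference -1.29, SE 0.39). Probe set 4671096 read 9.01, 8.26 and 8.43 on wild-type arrays and 8.12, 6.26 and 7.52 on Dnmt3a+/- arrays, with the lowest value on replicate 2 (difference -1.27, SE 0.50, and -0.75 without that array). In both, the gap between the genotypes was narrow, at 0.16 and 0.14. Probe set 5438208 differed by -1.25 (SE 0.46, and -0.74 without replicate 2). The lowest difference among probe sets above the median level, -1.39 (SE 0.48) in 4699729, came with overlapping genotypes. The Dnmt3a+/- means of 4699729, 5317243 and 5438208 were 5.77, 5.64 and 5.33, below the median level (5.89). These probe sets passed the filter only through wild-type. The dim probe set 5103848 read 5.41, 5.46 and 6.10 on wild-type arrays and 5.19, 1.77 and 2.98 on Dnmt3a+/- arrays, and its difference of -2.35 (SE 0.81) was -1.57 without replicate 2. The highest dim one, 5454398, overlapped at 0.34 (SE 0.38, and 0.57 without replicate 2).

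On the higher side, probe set 4938766 read 4.94, 5.83 and 6.09 on wild-type arrays and 6.998, 6.31 and 6.61 on Dnmt3a+/- arrays (difference 1.02, SE 0.36). Its wild-type mean of 5.62 lay below the median level (5.89), so it passed the filter only through Dnmt3a+/-. Probe set 4536524 read 6.91, 7.45 and 6.67 on wild-type arrays and 7.90, 7.68 and 7.86 on Dnmt3a+/- arrays (0.81, SE 0.27). In these, all Dnmt3a+/- arrays were high. The other probe sets among the 4 highest were of another kind: 4324471 read 8.08, 8.28 and 7.93 on wild-type arrays and 8.65, 9.60 and 7.96 on Dnmt3a+/- arrays, with replicate 2 far above the rest (0.63, SE 0.42, and 0.20 without it), and 5470367 did likewise (0.64, SE 0.44, and 0.21 without it). The brightest probe sets, 5209178 and 5483417, differed by 0.15 (SE 0.22, and 0.03 without replicate 2) and 0.11 (SE 0.20).

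Grouped by profile, 41 of the 70 brighter probe sets of Cwc22 fell into 7 groups of at least 4. The largest shift was in a group of 8 at -0.86, which stood at 0.62, 0.70 and -0.03 on the wild-type arrays and at -0.19, -0.76 and -0.34 on the Dnmt3a+/- arrays. Wild-type replicate 3 was the lowest wild-type array in all 8. Another 8 probe sets stood at -0.08, 0.36 and -0.38 on wild-type arrays and -0.31, -0.16 and 0.56 on Dnmt3a+/- arrays, so that Dnmt3a+/- replicate 3 and wild-type replicate 2 were high and the genotypes differed by 0.06 (0.16 without Dnmt3a+/- replicate 2). Groups of 4 and 4 were at 1.03 and 1.15 on Dnmt3a+/- replicate 2, with every other array at or below 0.15. Their differences of 0.39 and 0.61 became -0.03 and 0.18 without that array.

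Dnmt3a+/- replicate 2 was the lowest array in 31 of the 85 probe sets of Cwc22 (36.5%) and the highest in 17 (20.0%), while over all probe sets with 1 gene symbol it was the lowest in 26.8% and the highest in 19.8%. Wild-type replicate 2 was the highest in 36 (42.4%, against 18.4% over all of them). Distances reached 1.29 between these arrays, and the shortest, 0.56, joined wild-type replicate 3 and Dnmt3a+/- replicate 1, of different genotypes. The mean distance was 0.93 between genotypes, 0.76 within wild-type and 0.85 within Dnmt3a+/-. Without Dnmt3a+/- replicate 2 the mean between genotypes was 0.80. With all arrays kept, the means over all probe sets of the table were 0.82 between genotypes, 0.76 within wild-type and 0.85 within Dnmt3a+/-. Over probe sets above the median level they were 0.64, 0.57 and 0.68.

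Sfi1 had 61 probe sets with lower and 38 with higher means in Dnmt3a+/- cells, with a median of -0.14. The genotypes did not overlap in 15 with Dnmt3a+/- lower (15.2%) and in 4 with Dnmt3a+/- higher (4.04%), and 80 overlapped. Over the table, 5.3% did not overlap with Dnmt3a+/- lower and 6.27% with it higher. Of the 99 probe sets, 97 were above the median level. Without Dnmt3a+/- replicate 2 the non-overlap counts were 23 and 6 of the 99, where the table had 9.88% and 10.6%. The lower count was 24 of the 99 without wild-type replicate 2, where the table had 9.68%. It was 25 of the 99 without Dnmt3a+/- replicate 3, where the table had 10.4%. The higher count was 9 of the 99 without wild-type replicate 2, wild-type replicate 3 or Dnmt3a+/- replicate 1. The table then had 10.7%, 11.1% and 11.6%.

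The highest differences of Sfi1 came from a pair of probe sets. Probe set 5421872 read 7.32, 8.24 and 8.30 on wild-type arrays and 8.70, 10.46 and 9.24 on Dnmt3a+/- arrays. Probe set 5615951 read 7.43, 8.28 and 7.92 on wild-type arrays and 8.76, 10.22 and 9.15 on Dnmt3a+/- arrays. All Dnmt3a+/- arrays were above all wild-type arrays in both, with wild-type replicate 1 lowest and Dnmt3a+/- replicate 2 highest. The differences were 1.51 (SE 0.51) and 1.501 (SE 0.43), a fold of 2.85 and 2.83, and 1.01 and 1.08 without Dnmt3a+/- replicate 2. Probe set 5556680 followed at 0.78 (SE 0.25) without overlap, and 4775195 overlapped at 0.79 (SE 0.40, and 0.48 without Dnmt3a+/- replicate 2).

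On the lower side, probe set 4623885 read 9.003, 8.62 and 8.54 on wild-type arrays and 7.84, 6.97 and 7.66 on Dnmt3a+/- arrays. The gap between the genotypes was 0.70, wider than the range within wild-type (0.46) and narrower than that within Dnmt3a+/- cells (0.87), and the difference was -1.23 (SE 0.30). Probe set 5139229 read 6.06, 6.54 and 7.17 on wild-type arrays and 5.51, 5.62 and 5.21 on Dnmt3a+/- arrays (difference -1.14, SE 0.33). Its Dnmt3a+/- mean of 5.45 lay below the median level (5.89), so it passed the filter only through wild-type. For 5134877 the values were 7.65, 8.62 and 8.47 on wild-type arrays and 7.28, 6.11 and 8.12 on Dnmt3a+/- arrays, which overlapped (-1.08, SE 0.54, and -0.55 without replicate 2). The fourth lowest was 5403358 at -0.92 (SE 0.34), and the brightest, 4361302, was flat at 0.06 (SE 0.20), with 4676673 at 0.12 (SE 0.22). The dim probe sets 5367318 and 4550353 differed by 0.09 (SE 0.37, and -0.06 without replicate 2) and 0.15 (SE 0.74).

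Of the 97 brighter probe sets of Sfi1, 58 fell into 10 groups of at least 4 by profile. A group of 11 at -0.36 had Dnmt3a+/- replicate 2 as its lowest array in all 11 and differed by -0.18 without it. A group of 4 at -0.74 stood at 0.64, 0.27 and 0.20 on wild-type arrays and 0.12, -0.82 and -0.40 on Dnmt3a+/- arrays. Several groups set single arrays apart within a genotype: 5 probe sets had wild-type replicate 1 lowest in all 5 (at -0.55, with the other arrays between -0.03 and 0.18), and 4 had both wild-type replicate 2 and Dnmt3a+/- replicate 2 low, at -0.57 and -0.59. A group of 10 was flat, at 0.00. The mean distance between arrays was 0.64 between genotypes, 0.53 within wild-type and 0.61 within Dnmt3a+/-. Without Dnmt3a+/- replicate 2 the mean between genotypes was 0.54. With all arrays kept, the means over all probe sets above the median level were 0.64 between genotypes, 0.57 within wild-type and 0.68 within Dnmt3a+/-.

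The gene value, the mean over probe sets above the median level, of Gm4759 was 9.82, 9.86 and 9.99 on wild-type arrays and 9.80, 10.11 and 9.96 on Dnmt3a+/- arrays, with means of 9.89 ± 0.09 and 9.96 ± 0.15 (SD, n = 3) and a difference of 0.07 (SE 0.12). With the median of its probe sets on each array in place of the mean the difference was 0.50 (SE 0.16). The median of its 42 probe-set differences was 0.05, so 0.50 is not the typical shift of a probe set. Without Dnmt3a+/- replicate 2 the gene value by the mean differed by -0.0040. Cwc22 read 8.14, 8.42 and 8.08 on wild-type arrays and 8.07, 7.85 and 7.96 on Dnmt3a+/- arrays, a difference of -0.25 (SE 0.13) that was -0.13 without wild-type replicate 2. Sfi1 read 8.66, 8.58 and 8.69 on wild-type arrays and 8.54, 8.48 and 8.54 on Dnmt3a+/- arrays, a difference of -0.13 (SE 0.10) with a narrow gap between the genotypes. Gvin1 read 9.96, 9.91 and 10.11 on wild-type arrays and 9.44, 9.92 and 9.83 on Dnmt3a+/- arrays, at -0.27 (SE 0.15), and at -0.12 without Dnmt3a+/- replicate 1. The median difference of all 20059 genes was -0.02 (-0.0072 over 20033 genes without Dnmt3a+/- replicate 2). With all arrays, the gene values of the genotypes did not overlap in 15.8% of genes, in 9.05% with Dnmt3a+/- lower and in 6.74% with it higher.

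**Figure D4:**
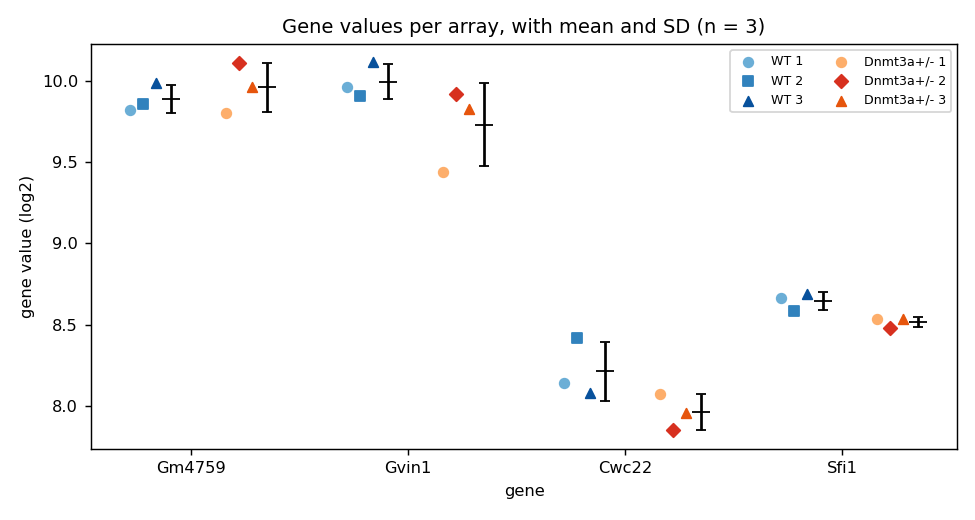
Gene values (vertical axis, log2) of the 4 genes on each array, with the mean and SD of each genotype (n = 3) as black bars. Gm4759 and Gvin1 overlap between the genotypes, and the Dnmt3a+/- arrays of Cwc22 and Sfi1 lie narrowly below the wild-type arrays.

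The size of the unequal shift can be given as the SD, over a gene's probe sets above the median level, of the difference between genotypes. It was 0.62 for Cwc22, 0.53 for Gm4759 and 0.45 for Sfi1, where the median of 13591 genes with at least 5 such probe sets was 0.31 (quartiles 0.24 and 0.39). A larger SD was found in 279 genes than in Cwc22, in 784 than in Gm4759 and in 1896 than in Sfi1, or 2.05%, 5.77% and 13.95% of genes. With dim probe sets included, the shares of 17700 genes above them were 5.57%, 15.7% and 31.4%. The SD was also divided by the spread that the arrays' residuals within genotypes give for the same probe sets. This ratio was added after the data were seen. It was 2.63 for Gm4759, 1.67 for Cwc22 and 1.39 for Sfi1, against a median of 0.92. Then 6 genes had a larger ratio than Gm4759, 282 than Cwc22 and 995 than Sfi1. The SD is the measure by which the genes were chosen, and the ratio is built from it, so these ranks support nothing further.

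**Figure D5:**
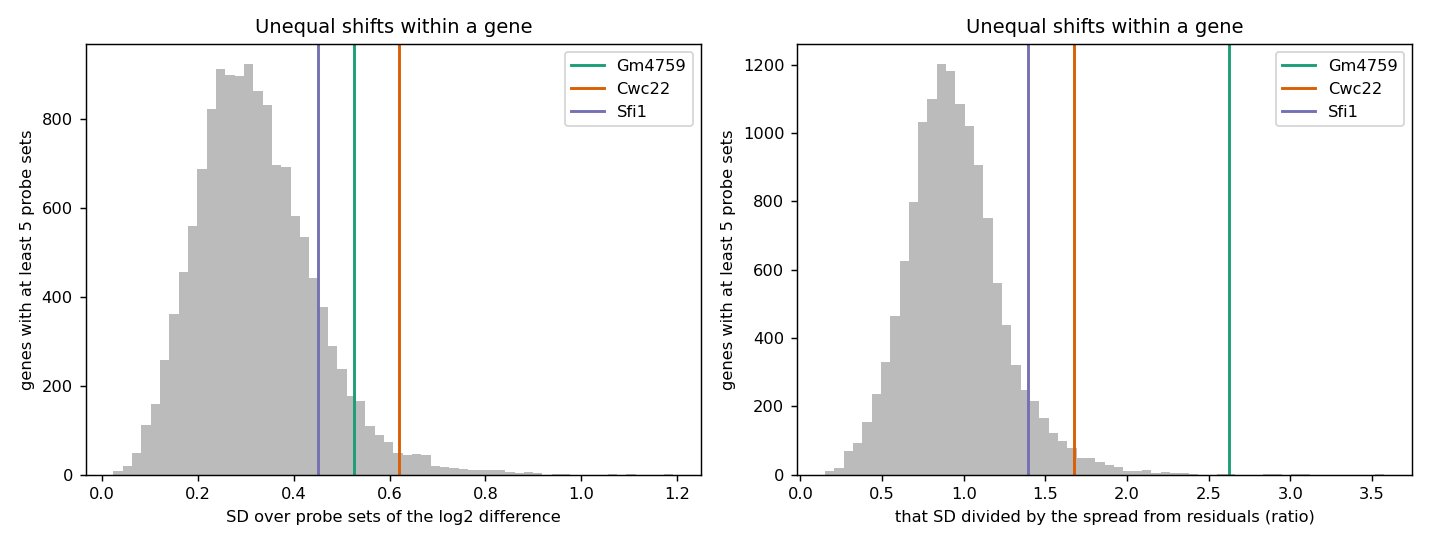
Histograms over 13591 genes of the SD over probe sets of the log2 difference between genotypes (left, horizontal axis in log2) and of that SD divided by the spread from residuals (right, a ratio), with the number of genes on the vertical axis. Coloured lines mark Gm4759, Cwc22 and Sfi1, and Gm4759 moves from inside the upper tail on the left to its far end on the right.

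Related genes, listed as partners of Cwc22 or Sfi1 or as GTPases like Gvin1, were measured by their gene values. Of 48, 0 passed (limma, adjusted over all 20059 genes), while 9 had an unadjusted p under 0.05 (8 lower, 1 higher). Over all genes 0% passed and 7.49% had such an unadjusted p, 4.57% lower and 2.92% higher. Without wild-type replicate 2 the 9 were 5, and without Dnmt3a+/- replicate 2 they were 6. The shares over all genes in those runs are not given here, so nothing is read from the fall. Among partners of Cwc22 and the exon junction complex, 13 of 16 had negative differences, with a median of -0.18. These were 9 of 16 and -0.05 without Dnmt3a+/- replicate 2. The peptidyl-prolyl isomerase Cwc27 read 8.30, 8.37 and 8.24 on wild-type arrays and 7.97, 7.95 and 7.90 on Dnmt3a+/- arrays, lower on each Dnmt3a+/- array (difference -0.36, SE 0.10, limma adjusted p = 0.631). The splicing factor Cdc40 differed by -0.34 (SE 0.15, and -0.20 without Dnmt3a+/- replicate 2) and the nonsense-mediated decay factor Upf2 by -0.25 (SE 0.11).

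Among centrins and centriole proteins, 12 of 14 had negative differences, with a median of -0.14, and 11 of 14 with a median of -0.07 without Dnmt3a+/- replicate 2. Cep192, a scaffold of the pericentriolar material, differed by -0.36 (SE 0.13) and Cep152, which helps to start centriole duplication, by -0.29 (SE 0.13, and -0.18 without that array). Cetn2, a centrin of the kind that Sfi1 binds, read 7.64, 7.80 and 7.75 on wild-type arrays and 8.18, 7.88 and 7.92 on Dnmt3a+/- arrays, higher on each Dnmt3a+/- array (0.26, SE 0.12). None of these passed.

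Of the very large inducible GTPases, 3 were measured, and all had negative differences. Gm1966, a gene of this family, read 9.56, 9.38 and 9.59 on wild-type arrays and 9.14, 8.81 and 9.47 on Dnmt3a+/- arrays (-0.37, SE 0.17). Gm8979 differed by -0.29 (SE 0.15) and Urgcp by -0.05 (SE 0.14). The differences without Dnmt3a+/- replicate 2 were -0.20 for Gm1966, -0.16 for Gm8979 and -0.12 for Urgcp. Of 15 other interferon-inducible GTPases, 12 had negative differences, with a median of -0.28, and 11 with a median of -0.14 without Dnmt3a+/- replicate 2. The guanylate-binding protein gene Gbp8 stood at 0.80 (SE 0.19), Igtp at -0.49 (SE 0.14) and Irgm1 at -0.39 (SE 0.14). These lists had 0 genes past the threshold in either direction, where the median difference of all genes was -0.02 (-0.0072 without Dnmt3a+/- replicate 2).

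By gene value, the profiles nearest to that of each member over the 6 arrays, centred on the gene's own mean, were as follows. Nearest to Gm4759 were Defb1, Jazf1 and Plcd4 (root mean square distance 0.03 to 0.04), and nearest to Gvin1 were Tapt1, Irs1 and Nxpe3 (0.06 to 0.07). Nearest to Cwc22 were Gtf2i, Brd1 and Chd4 (0.03 to 0.04), and nearest to Sfi1 were Ramp1, Nfic and Bmp2k (0.02 to 0.03). The gene value of Gm4759 is an average of opposite shifts, so its neighbours are alike only in that average.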

How the data were processed

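The authors deposited 1 intensity value per probe set and array, made with RMA in Partek per the submitters' processing notes; the sources used here name no version, setting or genome build. The deposited intensity values ran from 1.84 to 22239 and were on a linear scale, so log2 was taken without a pseudocount. Because RMA equalizes the arrays' distributions, a global change would not show. The 6 arrays limit the precision.

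Gene symbols came from the platform annotation, which can be old, and were updated through the RefSeq table of GRCm38.p6. Of 22296 symbols, 18006 were current and 4227 were updated. No coordinates are printed, since the build behind the probe sets is unknown. AA474331, listed among the very large GTPases, is an older name of Mfsd4b4, which is not of that family, and was left out.

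A linear model without covariates (limma 3.58.1, R 4.3.3, eBayes, Benjamini-Hochberg adjustment) was run on all 1256831 probe sets and on 20059 gene values. For the members only differences and standard errors (SE) are given. Profiles, centred on each probe set's mean, were grouped by complete linkage at a root mean square distance of 0.3. The gene fit was checked on simulated data made from the 20059 genes, with 200 changed per run: it recovered 66.6% of shifts of 1 and 94.6% of shifts of 2 on the log2 scale. Members and lists were chosen with earlier results of these data known. Named probe sets were the 4 lowest and 4 highest differences of each gene above the median level, the 2 brightest, and the lowest and highest dim one. Other genes named were the 3 with the smallest p of each list and the 3 nearest profiles. Deviations of same-numbered samples correlated at -0.09 to 0.11 across genes, which cannot show whether these samples were paired. Alternatives were 2 further normalizations, a pseudocount of 16, other filters and summaries, a variance trend, a replicate block and leaving out each array.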

Additional observations from a re-analysis of the deposited data

How the results depend on the processing

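Of the 229 probe sets of the 4 genes, 45 (19.7%) were non-overlapping with Dnmt3a+/- lower and 31 (13.5%) with Dnmt3a+/- higher. Over the table, which holds dim probe sets as well, these shares were 5.3% and 6.27%. Of the 229, 212 were above the median level, so the table is not matched to them in level. The counts were 44 and 32 of the 229 after cyclic loess and 44 and 31 after a second quantile normalization. They were 44 and 31 of the 212 probe sets above the median level. The shares over the table under these settings are not given here, so nothing is read from these counts. Leaving out 1 array gave 55 to 64 lower and 32 to 41 higher, since fewer arrays overlap less often. In those of these runs given above, the table's shares were 9.68% to 10.4% lower and 10.6% to 13% higher. The gene value difference of Gm4759 moved from 0.07 to 0.50 with the median of probe sets on each array. The median of its probe-set differences was 0.05. Without single arrays the gene value difference by the mean was -0.0040 to 0.15 for Gm4759. Those of Gvin1 were -0.36 to -0.12, of Cwc22 -0.31 to -0.13 and of Sfi1 -0.16 to -0.10. The SD over probe sets was 0.47 to 0.63 for Gm4759, 0.52 to 0.75 for Cwc22 and 0.39 to 0.54 for Sfi1 without single arrays. The mean distance between genotypes minus that within them was 0.24 for Gm4759 (0.19 to 0.37 without single arrays), 0.13 for Cwc22 (0.05 to 0.28), 0.08 for Sfi1 (0.04 to 0.13) and 0.02 for Gvin1 (-0.07 to 0.12). It was 0.02 over all probe sets of the table and 0.02 over those above the median level. Of the related genes, 0 passed under any alternative run (limma), and those at an unadjusted p under 0.05 numbered 5 to 10 without single arrays (5 without wild-type replicate 2). The shares over all genes at that unadjusted p in those runs are not given here.

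Whether same-numbered samples were paired is not known from the labels. With the replicate number as a block, the differences were the same by construction (0.07 for Gm4759, -0.27 for Gvin1, -0.25 for Cwc22, -0.13 for Sfi1). In that fit (limma) 0 related genes were past the threshold and 8 had an unadjusted p under 0.05, against 9 without the replicate block. The share of all genes at that unadjusted p in the block fit is not given here. Of 333 values of the 37 named probe sets under alternatives, 11 had another sign than the main value, all in probe sets whose genotypes overlapped. Dim probe sets, 15 in Cwc22 and 2 in Sfi1, limit what can be read at their levels.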
